A study of Mus musculus with 4 samples.

Results

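The genes of the DNA replication machinery were examined in SOCS3-null mouse embryonic stem (ES) cells and in wildtype ES cells. SOCS3 restrains signalling from cytokine receptors. The genes were a list of 47 for origin recognition, helicase loading, the replication fork, nucleotide supply and histone supply, with the regulator E2f1. A gene was represented by the probe set that carried its symbol alone and had the highest mean over all arrays. Of the 47 genes, 46 had such a probe set, and all 46 passed the filter on dim values. The other gene was not analysed here.

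The study measured total RNA on 4 expression arrays, 2 from SOCS3-null ES cells and 2 from wildtype ES cells. Its labels give no culture condition, clone, passage or deleted part of the gene. They do not say whether replicate arrays stand for separate cultures. The p-values therefore cover the spread between arrays alone, and that spread may be technical. Values are the deposited intensities on a linear scale. Tests were made with limma on log2(intensity + 16), and a change is the difference of group means, SOCS3-null minus wildtype. A gene counted as called, or as having passed, if its two-sided p, adjusted by the Benjamini-Hochberg method over all 12732 genes tested, was under 0.05. Called genes were picked on these same arrays, so groups without overlap are no separate support for them. Intensities of different probe sets cannot be set against each other, so levels are compared within a gene only. Sums over a list follow its brightest genes.

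DNA is copied once in each cell cycle. In G1 phase the origin recognition complex (ORC), with CDC6 and CDT1, loads the ring of MCM proteins onto DNA, and in S phase CDC45, GINS and MCM10 turn that ring into an active helicase. DNA polymerases then copy the strands with the sliding clamp PCNA, its loader RFC and the single-strand binding protein RPA, and transcription of many of these genes is driven by E2F factors. Mouse ES cells cycle fast, with a short G1 phase.

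The targeted gene was checked first. Socs3 had intensities of 19.3 and 12.9 on the SOCS3-null arrays, against 3024 and 1884 on the wildtype arrays, a change of -6.23 (SE 0.27, limma adjusted p = 0.00459). Markers of the labelled cell type were present on all arrays. Summed over 8 ES cell genes the intensity was 65959 and 61393 in SOCS3-null and 77859 and 77948 in wildtype cells. Of the 8 genes 2 fell, against 9.55% of all genes tested. Those 2 were Sox2 (-1.01, limma adjusted p = 0.0385) and Fgf4 (-1.29, limma adjusted p = 0.0404). All 8 changes were negative, with both SOCS3-null arrays below both wildtype arrays for 7 (background 33.6%). Their sizes were unlike: Pou5f1 differed by only -0.01, with overlap, and Dppa5a by only -0.03. The most negative change, of Zfp42 (-1.70), did not pass (limma adjusted p = 0.0691). Zfp42 had 3502 and 1509 in SOCS3-null and 7657 and 7324 in wildtype cells. Over 11 endoderm genes the sum was 33895 and 34408 in SOCS3-null cells, against 759 and 792 in wildtype cells. Of these, 11 of 11 rose, against 13.1% of all genes tested. The sums of the other lists in SOCS3-null and then in wildtype cells were 2510 and 1530 against 1273 and 2123 for 7 fibroblast genes, 105 and 114 against 72 and 54 for the 4 measured mesoderm genes, 140 and 358 against 82 and 84 for 5 trophoblast genes, and 185 and 168 against 468 and 504 for 5 neural genes. No marker was at 0 on any array. The sums of all lists but the fibroblast one differed between genotypes without overlap, and their part in the changes described here was not tested. Single genes weighed heavily in the small sums, so these do not describe whole lineages. Tubb3, which was called lower, had 111 and 109 in SOCS3-null and 403 and 438 in wildtype cells. Also neural, the dim Pax6 differed by -0.36 and Nes by 0.22, both without passing. Krt7 of the trophoblast list had 52.6 and 234, against 26.4 and 25.7, and did not pass. Hand1 (0.90) and Esx1 (0.29) of that list were also higher on both SOCS3-null arrays without passing. Eomes of the mesoderm list, which was called higher, had 79.1 and 87.5, against 45.5 and 27.7, while Kdr differed by -0.00. In RNA from a whole culture, fewer cells of a type and less RNA per cell cannot be told apart. The ratio of the 3' to the 5' control probe sets, a sign of RNA quality, was 1.84 and 1.88 in SOCS3-null and 1.83 and 1.65 in wildtype cells for actin, and 0.936 and 0.985 in SOCS3-null and 0.956 and 0.925 in wildtype cells for Gapdh.

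Because E2F factors are known regulators of these genes, the promoters are described before the values. RefSeq windows of 300 bases (250 before to 50 after a start, assembly GRCm38.p6) were given for 39 of the 46 genes, as 47 windows, with several windows for 6 genes. E2F-type letters were searched on both strands in the forms TTCCCGC and TTGGCGC, whose reverse complements are GCGGGAA and GCGCCAA. The run TTGGCGCCAA holds the second form on both strands and counts as 2 matches. At least 1 form was found in 20 of the 39 genes (51.3%), against 1436 of the 10282 genes tested that had a window (14%). Of all 27025 genes with a window it was found in 2105 (7.79%). The first form was in 15 of the 39 genes and in 9.66% of the genes tested, and the second in 9 of the 39 and in 5.1%. CCAAT was in 24 of the 39 genes (61.5%), against 42.9% of the genes tested, and the GC box GGGCGG in 30 (76.9%), against 68.2%, both read on both strands. A match is a description of letters, not a binding site or a cause.

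**Figure D1:**
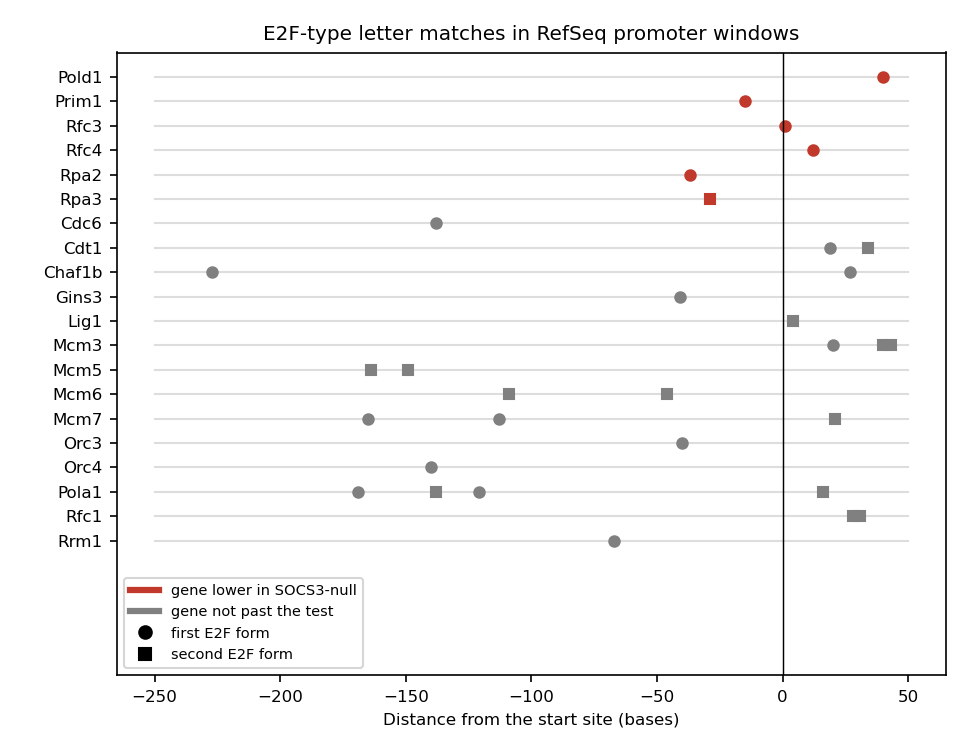
Positions of E2F-type letter matches relative to the RefSeq start site, in bases, for the 20 replication genes that held at least 1 (grey bars, the 300-base window; where a gene has several windows, each match is placed relative to its own start). Red marks genes lower in SOCS3-null than in wildtype cells and grey marks genes not past the test. Of the 32 matches, 20 lay within 50 bases of a start. The windows end 50 bases after a start, so this holds for any match after it. No background of positions was counted.

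Of the 11 genes with a window that fell in SOCS3-null cells, 6 held a match (54.5%), against 14 of the 28 genes not called (50%). A gene counted if any of its windows matched, and all genes with several windows were among those not called. Counted by window, the shares were 6 of 11 (54.5%), against 15 of 36 (41.7%). By form, the first was in 5 of the 11 (45.5%), against 10 of the 28 (35.7%), and the second in 1 of the 11 (9.09%), against 8 of the 28 (28.6%). The difference between these shares was not tested. These 6 windows are shown from 100 bases before to 50 after the start, with the E2F-type letters in capitals, since these genes both fell and hold the letters. Prim1 lies on the plus strand at chr10:128015115-128015264, Pold1 on the minus strand at chr7:44548766-44548915, Rfc3 on the minus strand at chr5:151651159-151651308, Rfc4 on the minus strand at chr16:23127681-23127830, Rpa2 on the plus strand at chr4:132768260-132768409 and Rpa3 on the minus strand at chr6:8259092-8259241 (GRCm38.p6).
Prim1: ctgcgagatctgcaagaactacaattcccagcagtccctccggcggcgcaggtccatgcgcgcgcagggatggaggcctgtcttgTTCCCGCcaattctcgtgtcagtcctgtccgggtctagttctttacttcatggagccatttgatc
Pold1: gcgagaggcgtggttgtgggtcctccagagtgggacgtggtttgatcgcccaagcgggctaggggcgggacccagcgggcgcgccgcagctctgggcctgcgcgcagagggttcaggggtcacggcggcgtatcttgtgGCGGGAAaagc
Rfc3: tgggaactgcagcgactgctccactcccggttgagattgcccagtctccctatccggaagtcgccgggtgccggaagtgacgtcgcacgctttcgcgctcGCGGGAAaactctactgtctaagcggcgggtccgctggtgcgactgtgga
Rfc4: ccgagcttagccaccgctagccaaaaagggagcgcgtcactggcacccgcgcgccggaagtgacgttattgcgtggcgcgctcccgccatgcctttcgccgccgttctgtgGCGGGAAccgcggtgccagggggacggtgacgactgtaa
Rpa2: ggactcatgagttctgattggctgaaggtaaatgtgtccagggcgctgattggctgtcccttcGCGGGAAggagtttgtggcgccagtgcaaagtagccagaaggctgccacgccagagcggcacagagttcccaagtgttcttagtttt
Rpa3: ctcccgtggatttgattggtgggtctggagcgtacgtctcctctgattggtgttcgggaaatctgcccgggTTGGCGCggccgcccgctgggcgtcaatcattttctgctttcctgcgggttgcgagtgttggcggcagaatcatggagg
In each of the 6 the match lay within 50 bases of the start. The promoters of Mcm3 (minus strand, chr1:20820263-20820412) and Pola1 (minus strand, chrX:93632106-93632255) are shown beside them as genes whose windows hold several matches. Both genes had negative changes that did not pass, -0.32 for Mcm3 and -1.13 for Pola1, that of Pola1 with a limma adjusted p of 0.0533. The promoter of Mcm3 carries TTGGCGCCAA beside a match to the first form. Of the matches of Pola1, 1 lies in the stretch shown and the others lie upstream of it, at -169, -138 and -121 bases.
Mcm3: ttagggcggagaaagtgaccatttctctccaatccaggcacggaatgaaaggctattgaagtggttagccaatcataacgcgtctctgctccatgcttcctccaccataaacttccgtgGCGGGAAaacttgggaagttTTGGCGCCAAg
Pola1: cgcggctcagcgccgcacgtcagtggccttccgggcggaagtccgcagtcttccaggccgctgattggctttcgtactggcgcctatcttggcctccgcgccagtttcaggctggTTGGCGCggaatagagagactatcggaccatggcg

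Across the replication genes, 14 of 46 fell in SOCS3-null cells (30.4%), against a background of 9.55% of all genes tested, and 0 rose by limma, against 13.1%. In either direction 22.7% of all genes were called. The replication genes were read from brighter probe sets than the genes tested as a whole (median wildtype mean 1213 against 128). No background of equal brightness was counted, and the part of brightness in these shares was not tested. At an unadjusted p under 0.05 the counts were 22 lower, against a background of 17.7%, and 0 higher, against 20.8%. The change was negative in 38 genes and positive in 8, with a median of -0.38 where the median of all genes was -0.005. Both SOCS3-null arrays lay below both wildtype arrays for 28 genes (background 33.6%) and above them for 4 (background 32.3%), and the arrays overlapped for 14. A change of -0.5 or below was measured in 18 genes, against 12.3% of all genes.

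These sizes depended on the arrays. SOCS3-null replicate 2 lay below SOCS3-null replicate 1 in 40 of the 46 genes (87%), against 48.7% of all genes tested. Set against the wildtype mean, the genes had a median of -0.21 on SOCS3-null replicate 1, with 34 of 46 negative, and of -0.50 on SOCS3-null replicate 2, with 41 negative. Their summed intensity was 87134 and 74802 in SOCS3-null cells, against 103693 and 103332 in wildtype cells. With any 1 array left out limma called 0 replication genes and 0 genes in all. Counted at an unadjusted p under 0.05, 26 of 46 were lower without SOCS3-null replicate 1, beside 17.2% of all genes. Without SOCS3-null replicate 2 there were 14 lower, beside 15.6%, and 4 higher, beside 19.8%. Without wildtype replicate 1 there were 11 lower, beside 9.64%, and without wildtype replicate 2 there were 12, beside 11.5%.

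**Figure D2:**
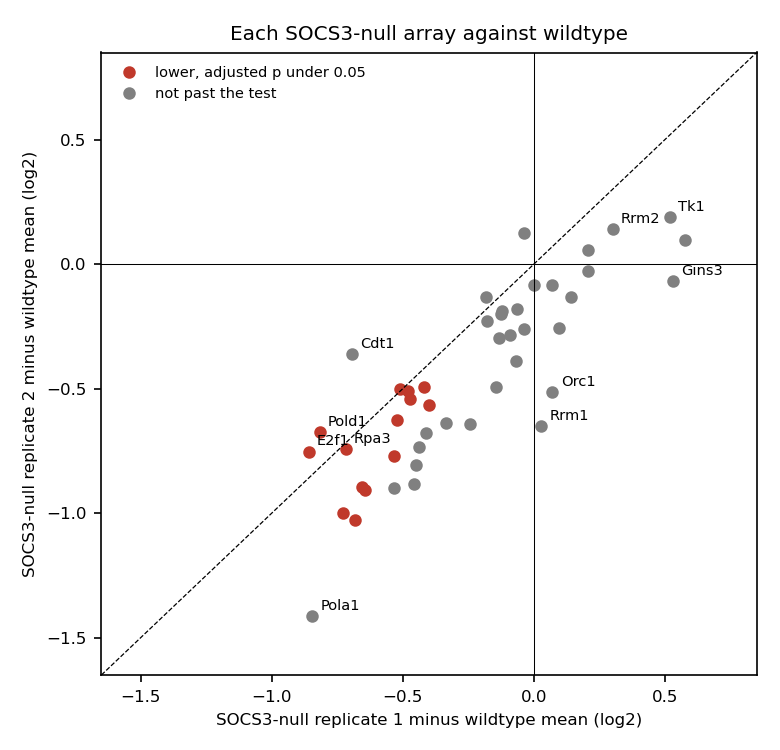
Each point is 1 of 46 replication genes, placed by its log2(intensity + 16) on SOCS3-null replicate 1 (x axis) and replicate 2 (y axis), each minus the wildtype mean. Most points (40 of 46) lie below the dashed line of equality. The 14 called genes (red), picked on these same arrays, were below the wildtype mean on both SOCS3-null arrays.

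**Figure D3:**
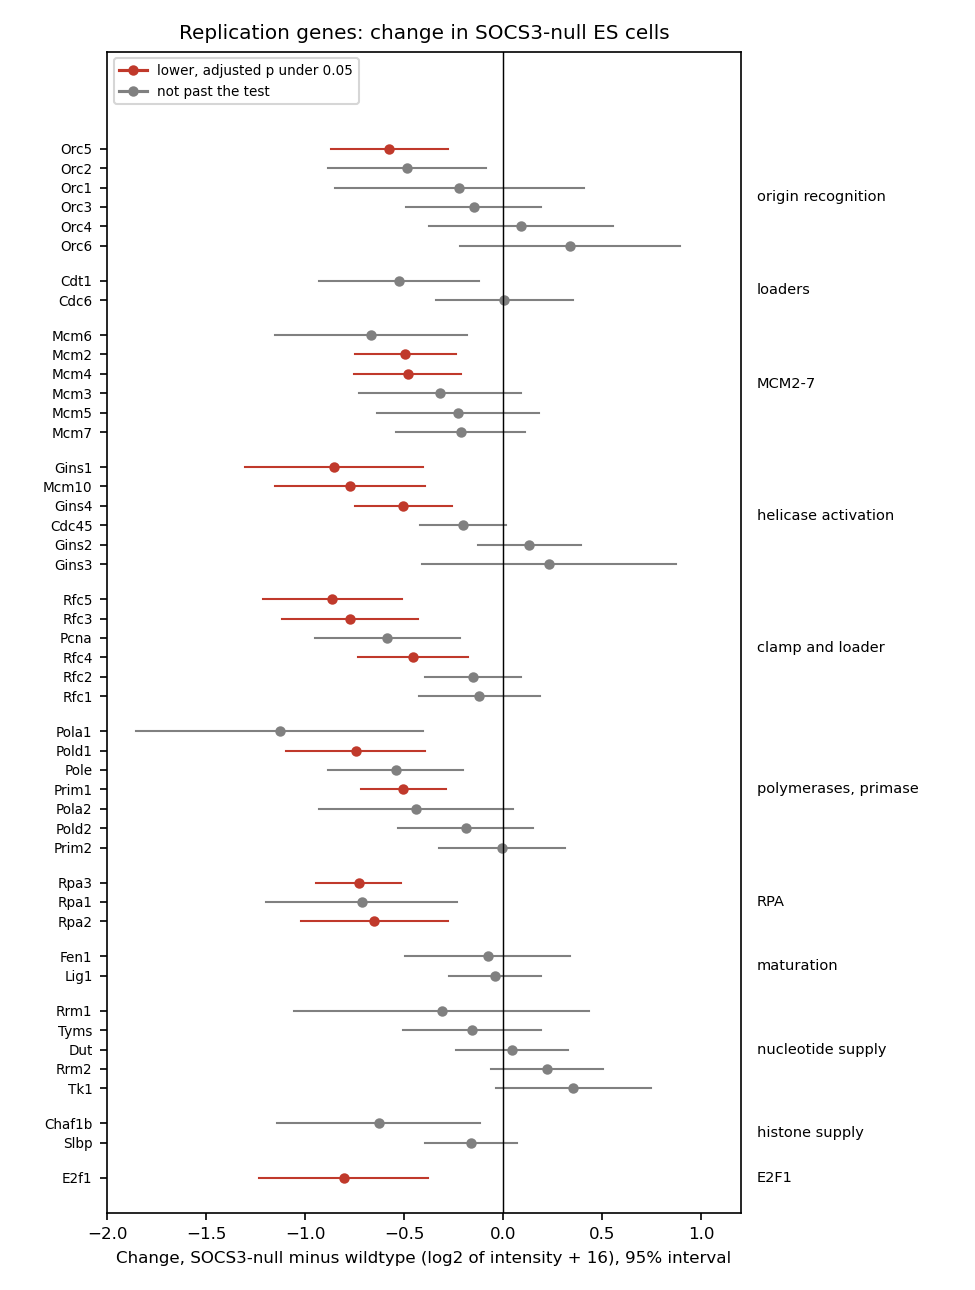
Change of each of 46 replication genes on the log2 scale, SOCS3-null minus wildtype, with its 95% interval from limma, grouped by role. Red marks the 14 genes called lower; over the roles with more than 1 gene the medians ran from -0.72 for RPA to 0.04 for nucleotide supply.

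Of the 6 subunits of ORC, which marks origins, 1 fell and 0 rose, with a median change of -0.19. Orc5, a subunit of the ORC ring (GRCm38.p6 chr5:22486480-22550338), had 608 and 565 on the SOCS3-null arrays, against 939 and 826 on the wildtype arrays. Its groups were apart, with a change of -0.57 (SE 0.11, limma adjusted p = 0.0351). Orc2 measured 651 and 525 in SOCS3-null and 869 and 785 in wildtype cells, again without overlap, but its change of -0.49 did not pass (adjusted p = 0.0877). Orc6, the subunit outside the ring, went the other way in value, with 2067 and 1478 in SOCS3-null and 1466 and 1300 in wildtype cells (0.34, adjusted p = 0.30). Orc1 and Orc3 differed by -0.22 and -0.15, and their arrays overlapped. The direction of Orc4 depended on the probe set: the brightest overlapped (0.09), while another pair differed by -0.39 each with both SOCS3-null arrays below both wildtype arrays, and the mean of its probe sets differed by -0.21 (adjusted p = 0.337).

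Neither loader of the helicase passed. Cdt1, the loading factor that geminin inhibits, had 2444 and 3080 on the SOCS3-null arrays, against 4093 and 3838 on the wildtype arrays, a change of -0.53 (SE 0.14, adjusted p = 0.0768). It was 1 of the 6 genes whose SOCS3-null replicate 1 was the lower of the pair. Cdc6, the ATPase that works with ORC, had 620 and 510 in SOCS3-null and 557 and 564 in wildtype cells. Its arrays overlapped, and the change of 0.00 had a 95% interval of -0.34 to 0.35.

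All 6 genes of the MCM ring, the core of the replicative helicase, had negative changes (median -0.40), and 2 fell. Mcm2 had 1764 and 1728 in SOCS3-null cells, against 2347 and 2591 in wildtype cells (-0.49, SE 0.09, limma adjusted p = 0.0349). Mcm4 had 3037 and 2706 in SOCS3-null cells, against 3969 and 4060 in wildtype cells (-0.48, SE 0.10, adjusted p = 0.0408). For both subunits the groups stood apart. Mcm6 showed a change of -0.67 that did not pass (SE 0.17, adjusted p = 0.0687), with 4032 and 2997 in SOCS3-null and 5379 and 5700 in wildtype cells; its SOCS3-null arrays lay far apart. Mcm5 had 9011 and 7221 in SOCS3-null and 9938 and 9002 in wildtype cells, which overlapped (-0.23, adjusted p = 0.335). Mcm3 and Mcm7 differed by -0.32 and -0.21 and did not pass. Other bright probe sets of Mcm3 differed by -0.92, -0.59 and -0.48, each with both SOCS3-null arrays below both wildtype arrays and none passing over all probe sets (limma adjusted p = 0.0617, 0.0517 and 0.202). The mean of its probe sets differed by -0.53 (adjusted p = 0.0548). The probe sets of Mcm3 and Mcm7 carry the suffix _s_at and that of Mcm5 the suffix _x_at, which mark probes that can match other transcripts.

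Among the 6 genes that activate the helicase, 3 fell and 0 rose. Gins1, a GINS subunit (chr2:150909556-150931280), had 757 and 593 on the SOCS3-null arrays, against 1313 and 1144 on the wildtype arrays (-0.86, SE 0.16, limma adjusted p = 0.0361). Gins4, also of GINS, had 607 and 578 in SOCS3-null cells, against 880 and 818 in wildtype cells (-0.51, SE 0.09, adjusted p = 0.0307). The scaffold Mcm10, which binds DNA and the helicase, had 483 and 399 in SOCS3-null cells, against 810 and 718 in wildtype cells (-0.78, SE 0.14, adjusted p = 0.0316). All 3 genes had groups without overlap. The other GINS subunits had positive changes that did not pass: Gins2 with 0.13 (95% interval -0.13 to 0.39), and Gins3 with 113 and 68.9 in SOCS3-null and 74.7 and 71.6 in wildtype cells (0.23, interval -0.41 to 0.87). In value the GINS genes did not share a direction, but both of these intervals include no change. Without SOCS3-null replicate 1 the change of Gins3 turned to -0.07. Whether the GINS subunits differ from each other was not tested. Cdc45, the partner of GINS and MCM at the fork, differed by -0.20 (adjusted p = 0.147).

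For the sliding clamp and its loader, 3 of 6 genes fell and all 6 changes were negative (median -0.52). Rfc5, a small subunit of the loader (chr5:117379145-117389023), had 1733 and 1433 in SOCS3-null cells, against 2811 and 2949 in wildtype cells, or 1583 ± 213 against 2880 ± 98.1 (SD, n = 2). Its change was -0.86 (SE 0.13, limma adjusted p = 0.0222). The subunit Rfc3 had 385 and 323 in SOCS3-null cells, against 642 and 589 in wildtype cells (-0.77, SE 0.12, adjusted p = 0.0259). Rfc4 had 1197 and 1134 in SOCS3-null cells, against 1699 and 1516 in wildtype cells (-0.46, SE 0.10, adjusted p = 0.0481), the called gene nearest the threshold. The groups of all 3 subunits were apart, while Rfc1, the large subunit, and Rfc2 differed by only -0.12 and -0.15. Whether the loader subunits differ from each other was not tested. Pcna, the clamp itself, had 11984 and 9762 in SOCS3-null and 16069 and 16410 in wildtype cells. Its groups did not overlap, and its change of -0.59 (SE 0.13) missed the threshold with a limma adjusted p of 0.0504.

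**Figure D4:**
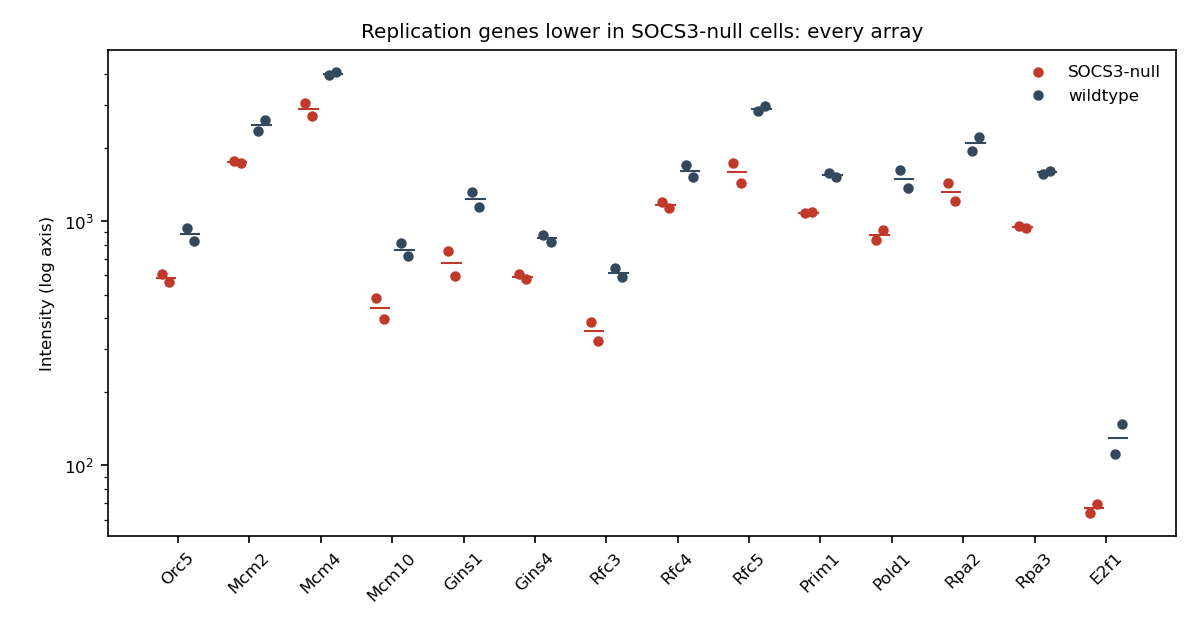
Intensity of the 14 called genes on every array, on a log axis, with SOCS3-null arrays (red) left of wildtype arrays (dark) and a line at the mean of each group's 2 arrays. In all 14 genes both SOCS3-null arrays lay below both wildtype arrays, against 33.6% of all genes tested. The 14 were called on these same arrays, so the separation is no separate support. Heights of different genes come from different probes and cannot be compared.

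The 7 genes of the polymerases and primase all had negative changes (median -0.51), and 2 fell. Prim1, the catalytic subunit of the primase that starts each new strand, had 1078 and 1085 on the SOCS3-null arrays, against 1566 and 1518 on the wildtype arrays (-0.51, SE 0.08, limma adjusted p = 0.024). Prim2, the other primase subunit, had 421 and 377 in SOCS3-null and 428 and 375 in wildtype cells, with overlap (-0.01, 95% interval -0.33 to 0.31). Pold1, the catalytic subunit of polymerase delta, had 836 and 924 in SOCS3-null cells, against 1615 and 1365 in wildtype cells (-0.75, SE 0.12, limma adjusted p = 0.0291). Its accessory subunit Pold2 differed by -0.19 and overlapped. Pola1, the catalytic subunit of polymerase alpha, had the most negative change of the 46 genes, -1.13, but also an SE of 0.26. It had 433 and 287 in SOCS3-null and 907 and 689 in wildtype cells, without overlap and with a limma adjusted p of 0.0533. Pole, the catalytic subunit of polymerase epsilon, had 506 and 418 in SOCS3-null and 675 and 681 in wildtype cells (-0.54, adjusted p = 0.0501). Pola2 differed by -0.44 and did not pass.

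RPA coats single-stranded DNA at the fork. Rpa3, its small subunit (chr6:8255936-8259141), had 957 and 941 in SOCS3-null cells, against 1565 and 1605 in wildtype cells, or 949 ± 11.1 against 1585 ± 28.1 (SD, n = 2). The replicates of each group lay close together, and the change was -0.73 (SE 0.08), with the lowest limma adjusted p of the 46 genes, 0.0119. Rpa2 had 1429 and 1210 in SOCS3-null cells, against 1943 and 2215 in wildtype cells (-0.65, SE 0.13, adjusted p = 0.0421). Rpa1, the large subunit, had 4054 and 3144 in SOCS3-null and 6373 and 5416 in wildtype cells; its change of -0.72 was close in size to that of the other subunits but did not pass (SE 0.17, adjusted p = 0.0592). The median over the 3 subunits was -0.72, and the groups of all 3 were apart.

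Genes that finish the lagging strand showed overlapping arrays. Fen1, the flap nuclease, had 1579 and 1231 in SOCS3-null and 1481 and 1468 in wildtype cells (-0.08, 95% interval -0.49 to 0.33). Lig1, the DNA ligase that joins Okazaki fragments, had 1287 and 1211 in SOCS3-null and 1306 and 1266 in wildtype cells (-0.04, interval -0.27 to 0.19).

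For the 5 genes of nucleotide supply the median change was 0.04, and 0 passed in either direction by limma, also at an unadjusted p under 0.05. Rrm2, the small subunit of ribonucleotide reductase, had 8439 and 7551 in SOCS3-null and 6611 and 7093 in wildtype cells, with both SOCS3-null arrays higher (0.22, 95% interval -0.06 to 0.50). That probe set carries the suffix _x_at, and the other probe sets of Rrm2 differed by -0.06 and 0.27 with overlap. Tk1, the thymidine kinase of the salvage pathway, was likewise higher on both SOCS3-null arrays (0.35, interval -0.04 to 0.75). Rrm1, the large subunit of the reductase, differed by -0.31 (interval -1.05 to 0.43) with overlap. Tyms, thymidylate synthase, had 57.1 and 59.7 in SOCS3-null and 59.6 and 75.1 in wildtype cells, also with overlap (-0.16). Dut, which removes dUTP, differed by 0.04. That these genes stand apart from the fork genes was not tested.

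Of the histone supply genes, Chaf1b, a subunit of the chromatin assembly factor CAF-1, had 555 and 430 in SOCS3-null and 689 and 849 in wildtype cells, without overlap (-0.63, SE 0.18, adjusted p = 0.0871). Slbp, which binds the stem-loop of histone mRNAs, had 2433 and 2310 in SOCS3-null and 2719 and 2594 in wildtype cells (-0.16, adjusted p = 0.245). The regulator E2f1 fell: it had 63.5 and 69.6 in SOCS3-null cells, against 112 and 147 in wildtype cells, with groups apart (-0.81, SE 0.15, limma adjusted p = 0.0363).

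Other probe sets of the same genes read the same RNA samples with other probes, on these same arrays. A shared sign is therefore no separate support for the calls. The 14 called genes had 26 probe sets, and 4 of them (Orc5, Gins4, Rfc5 and Rpa3) had 1 each. Of the 12 other probe sets 11 were tested; all 11 changes were negative (median -0.43), and 2 passed over all 27022 probe sets, where 7.3% were lower and 8.55% higher. These were Prim1 with -0.63 (limma adjusted p = 0.0266) and E2f1 with -0.94 (adjusted p = 0.0146). The second probe set of Gins1 did not show the change, with 123 and 45.9 in SOCS3-null and 85.1 and 69.3 in wildtype cells (-0.00). That of Pold1, whose brightest probe set carries the suffix _x_at, differed by -0.43 (adjusted p = 0.165). Among the genes not called, 37 other probe sets were tested, of which 32 had negative and 5 positive changes. The 2 that passed were of Mcm6 (-0.72, limma adjusted p = 0.0261) and Orc2 (-0.66, adjusted p = 0.023). Adjusted over all probe sets, 12 of the 14 called genes remained called on their brightest probe set, without Rfc4 and Rpa2.

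**Figure D5:**
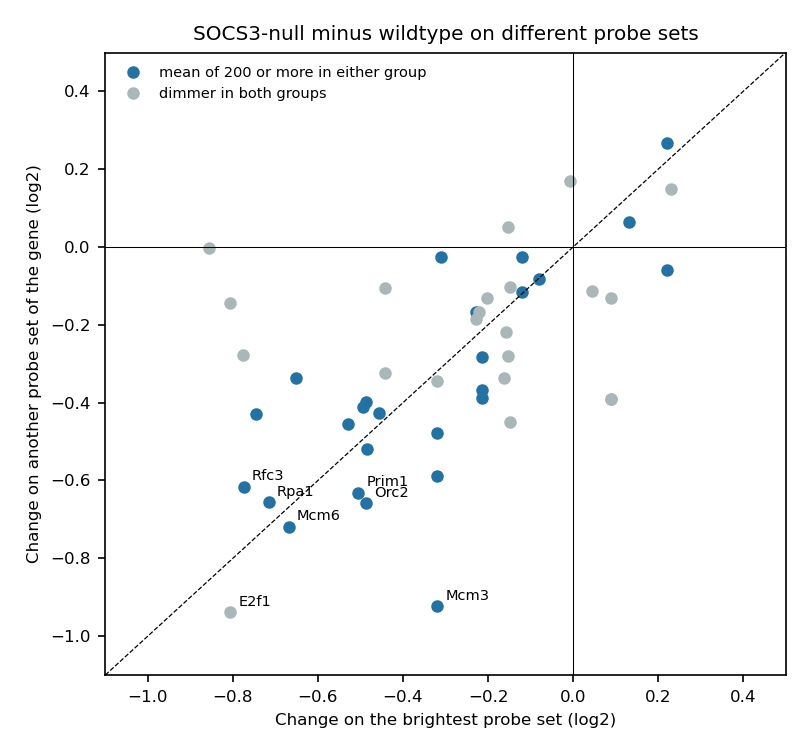
Change, SOCS3-null minus wildtype on the log2 scale, on the brightest probe set of a replication gene (x axis) and on each of its 48 other tested probe sets (y axis), with the dashed line marking equality. Of the 48, 43 were negative. Of the 26 with a mean intensity of at least 200 in either group (blue), 24 were negative. All were read on the same arrays, so a shared sign is no separate support.

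Some replication genes share a promoter region with a gene on the other strand. For 8 such pairs, with starts within 1000 bases of each other, the partner was tested and 0 partners passed by limma, beside 22.7% of all genes called in either direction. Of the 8 replication genes 1 was itself called. This was Rpa3, which starts 147 bases from Umad1 and fell with -0.73, where Umad1 differed by 0.11 (SE 0.15, limma adjusted p = 0.656). The others did not pass on either side. Smyd4 differed by 0.00 beside Rpa1, Ufd1 by 0.10 beside Cdc45, Tmem258 by 0.19 beside Fen1 and Ap4m1 by 0.17 beside Mcm7. Negative changes stood on both sides for Orc3 with Rars2 (-0.37), Orc1 with Prpf38a (-0.17) and Lig1 with Zswim9 (-0.07). Differences within a pair were not tested.

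Genes around the machinery were read from 3 further lists. Of 41 other replication genes tested, 5 fell and 0 rose by limma, with a median change of -0.22. Nasp, a histone chaperone, had 2676 and 2588 in SOCS3-null cells, against 5085 and 5270 in wildtype cells (-0.97, SE 0.08, limma adjusted p = 0.00871). Asf1a, another histone chaperone, fell with -0.58, the thymidylate kinase Dtymk with -0.56, the polymerase epsilon subunit Pole4 with -0.50 and the deubiquitinase Usp1, which acts on PCNA, with -0.43. Umps, a pyrimidine synthesis enzyme, and Atad5, which unloads PCNA, differed by -0.49 and -0.44 without passing. Tipin, of the fork protection complex, differed by -0.64 and Pold4, a polymerase delta subunit, by 0.88, also without passing.

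Of 15 genes of the E2F and RB families and their complexes, 2 fell and 0 rose, with a median of -0.20. E2f3, an activating E2F, had 212 and 204 in SOCS3-null cells, against 299 and 304 in wildtype cells (-0.50, SE 0.08, limma adjusted p = 0.0248). Tfdp2, a dimerisation partner of E2F, had 223 and 226 in SOCS3-null cells, against 412 and 445 in wildtype cells (-0.88, SE 0.08, adjusted p = 0.0104). The partner Tfdp1 differed by -0.69 and missed the threshold (adjusted p = 0.0521). Rbl1, a relative of the retinoblastoma gene, and the repressor E2f7 differed by -0.39 and -0.36 (adjusted p = 0.128 and 0.145), and the retinoblastoma gene Rb1 by 0.29 (adjusted p = 0.255), all without passing.

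Of 15 tested checkpoint and repair genes, 4 fell and 0 rose, with a median of -0.37. Fancd2, of the Fanconi anaemia pathway, had 211 and 227 in SOCS3-null cells, against 461 and 486 in wildtype cells (-1.06, SE 0.09, limma adjusted p = 0.00871). The checkpoint kinase Chek1 fell with -0.66, the mismatch repair gene Msh6 with -0.48 and the kinase Wee1, which restrains entry to mitosis, with -0.37. Atr, the kinase upstream of Chek1, and the clamp gene Rad1 differed by -0.41 and -0.46 and did not pass (adjusted p = 0.0687 and 0.0669). Cdc25a, a phosphatase of the cell cycle, and the nuclease Exo1 differed by -0.37 and -0.46, also without passing. The counts of the 3 lists were 12.2%, 13.3% and 26.7% lower, beside 9.55% of all genes and 30.4% of the replication genes.

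By limma 0 replication genes rose in any of 11 alternatives that used all arrays, and at an unadjusted p under 0.05 likewise 0. Rpa3 passed in 11 of 11, Gins4, Rfc3, Rfc5 and Prim1 in 10, and Rfc4 in 6. Of the genes not called, Pola1 passed in 6, Pcna, Pole and Rpa1 in 4 each, Cdt1 and Mcm6 in 2 each, and Orc2 and Chaf1b in 1 each. Without the filter on dim probe sets, 3 replication genes were called lower: Gins4, Prim1 and Rpa3. Of all 18193 genes tested in that setting, 678 were lower.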

How the data were processed

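The deposited values are intensities on a linear scale, 45101 probe sets on each of 4 arrays (2 SOCS3-null, 2 wildtype), taken as the authors deposited them. How the authors summarised and normalized them is not given in the sources used here. Array medians were 15.8 and 15.8 in SOCS3-null and 16.0 and 16.0 in wildtype cells, and the values were not normalized again. The number of arrays limits the precision.

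Symbols came from a platform annotation: 34945 probe sets had 1 symbol, 932 had several and 9160 had none, beside 64 controls. Of the named ones, 34741 matched a RefSeq table (GRCm38.p6), whose symbols and coordinates were used. Each gene was read from its brightest probe set on average, and those with a mean log2(intensity + 16) under the 40th percentile (4.72) were left out. This gave 12732 genes, fitted with limma 3.58.1 in R 4.3.3 (lmFit, eBayes, genotype as the only term). The pseudocount of 16 understates the change of dim genes. The procedure was run on simulated data with known changes and noise independent between arrays. What was required there was that the larger changes be estimated rightly on average. Shifts of a whole array were not simulated, so the calls under such shifts were not checked.

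The members and lists were chosen with earlier results of these data known. Values on every array were given for called members, for the brightest and the dimmest member of each role, and for changes of at least 0.5. From the other lists, called genes and up to 4 further genes with the smallest p could be named. Sequences were taken from RefSeq promoter windows, and proteins were not used here.

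The fit was repeated with a pseudocount of 1 or 64, after quantile normalization or median centring, with the filter removed or set at the 60th percentile, with a trended or robust trended eBayes, with a replicate block, over averaged probe sets, with adjustment over probe sets, and without each array in turn. Same-numbered arrays did not deviate together (correlation of deviations -0.12), and nothing in the labels pairs them. Figures were drawn with matplotlib 3.10.9.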

Additional observations from a re-analysis of the deposited data

How the results depend on the processing

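With 2 arrays per group, the calls depended on the settings. Where 14 of 46 replication genes were lower, beside 1216 of all 12732 genes, 3 were lower without the filter, beside 678 of 18193. With the replicate block 8 were lower, of which 6 were among the 14, beside 747 of 12732 genes. Other alternatives with all arrays gave 12 to 21 replication genes lower. The 12 with adjustment over probe sets stood beside 1028 of 12732 genes. The 21 with the filter at the 60th percentile stood beside 1376 of 9645. In all alternatives with all arrays 0 replication genes were higher. With any 1 array left out, counts lower were 0 to 0 for the replication genes and for each of the 3 further lists, the members' median change ran from -0.498 without SOCS3-null replicate 1 to -0.213 without SOCS3-null replicate 2, and the Socs3 change from -6.57 to -5.89 without passing (limma adjusted p 0.0627 to 0.157). A lone array was then taken to vary like the other group. Of the other replication genes, where 5 were lower, 3 were lower with a pseudocount of 1, 2 without the filter and 1 with the replicate block, and 1 was higher with the filter at the 60th percentile and 1 with the replicate block. With the replicate block 1 gene of the E2F and RB list and 1 of the checkpoint and repair list were lower, where 2 and 4 had been. The numbers do not pair the arrays by the labels; with the numbers crossed, chosen after seeing the data, 12 replication genes, 3 other replication genes, 3 E2F and RB genes and 2 checkpoint and repair genes were lower. Among members not called, averaging probe sets per gene turned the sign of Orc4 to -0.21, of Prim2 to 0.08 and of Dut to -0.03; quantile normalization turned Cdc6 to -0.01 and median centring Prim2 to 0.00. With an array left out the change ran from -0.51 to 0.07 for Orc1, -0.08 to 0.26 for Orc4, -0.13 to 0.14 for Cdc6, -0.07 to 0.53 for Gins3, -0.10 to 0.08 for Prim2, -0.26 to 0.10 for Fen1, -0.09 to 0.00 for Lig1, -0.65 to 0.03 for Rrm1 and -0.04 to 0.12 for Dut. The cause of these shifts was not tested. In either direction, 1631 of 18193 genes were called without the filter and 1914 of 12732 with the replicate block, beside 2888. With the numbers crossed 1160 of 12732 genes were lower.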
